A study of Ettlia oleoabundans with 10 samples.

Results

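Salt stress and nitrate limitation were compared directly in Ettlia oleoabundans (strain UTEX # 1185), a unicellular green alga that stores oil, with 1 library from a culture at 150 mM NaCl set against 1 library from a culture at 0.38 mM nitrate. These are the only 2 of the series' 10 libraries whose titles carry a code beginning with RAA; the other 8 are coded c1 to c8, and the labels do not say what either kind of code means. An offset of the same log2 size in both RAA libraries cancels in their difference. The members were the scaffold families whose values averaged 1 or more in this pair of libraries, which kept 8557 of 10122 families. The family just inside that minimum had a mean of 1.005 and the one just outside had 0.995.

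All cultures grew photoautotrophically for 6 days at 25 °C in Bold Basal Medium that had been modified and supplied with vitamins B1 and B12, and poly(A)-selected RNA was sequenced. The label of the 150 mM NaCl culture gives no nitrate concentration and that of the 0.38 mM nitrate culture gives no NaCl concentration, so the cultures can differ in both. The control culture had 9 mM nitrate and 42 mM NaCl, and cultures at 1.5 and 3 mM nitrate complete the nitrate-replete libraries used below as a reference. A second pair, 300 mM NaCl (code c4) against 0 mM nitrate (code c6), was used to check the direction of each difference; it shares no library with the first pair. The remaining libraries came from 75 mM NaCl, 600 mM NaCl and 0.75 mM nitrate. Every condition had 1 library, so no difference below has a replicate error or a test, and what is given describes these cultures.

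As background, nitrogen-limited green algae are known to raise transcripts for taking up and assimilating nitrogen, to reduce investment in nitrogen-rich proteins of the photosynthetic apparatus, and to divert carbon into starch and storage oil. Under high salt, algal cells are known to export sodium, to accumulate compatible solutes such as proline or sugars, and to induce chaperones and antioxidant enzymes. Both stresses slow growth and can lead to oil storage. The table pairs the scaffold families with no gene names, so no family below is given a function and the cultures could not be checked against marker genes. In bulk RNA from a culture, a change in every cell and a change in the share of cells in some state cannot be told apart.

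The values were taken to be expression levels scaled for length and depth, which was not tested. The number of reads behind a value is not known. The values summed to 606273 at 150 mM NaCl and 362924 at 0.38 mM nitrate, within a range of 362924 to 695913 over the 10 libraries. Among the kept families, the median of log2(value + 1) was 0.44 higher at 150 mM NaCl than at 0.38 mM nitrate, while the medians of 300 mM NaCl and 0 mM nitrate differed by 0.03. Each library was therefore centred on its median, and every difference below is relative to it, on the log2(value + 1) scale. That scale understates differences of families with low values.

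Most families lay close together under salt and under nitrate limitation: 6619 of 8557 (77.4%) were within 2-fold of each other at 150 mM NaCl and 0.38 mM nitrate. A group of 285 families was at least 4-fold higher at 150 mM NaCl, which is 3.33% of those compared, and 177 were at least 4-fold lower, which is 2.07%. Beyond 10-fold, 76 families (0.888%) were higher at 150 mM NaCl and 46 (0.538%) were lower. For scale, 3 mM minus 1.5 mM nitrate, a pair of similar c-coded cultures, gave 0 families (0%) past 4-fold in either direction. Past 2-fold that pair gave 30 families (0.351%), where the salt and nitrate-limited pair gave 1938 (22.6%). The SD of the differences over families was 1.06 for the salt and nitrate-limited pair and 0.27 for the 3 and 1.5 mM nitrate pair.

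The balance between higher and lower families depended on how the libraries were brought to one scale. Of the 462 families past 4-fold, 61.7% were higher at 150 mM NaCl with median centring. That share was 82.2% with no centring and 49.1% with equal library totals. It was 42.5% when libraries were centred on the median of the same 1000 families, those with the highest mean over the 2 RAA libraries. With the last 2 scalings, families lower at 150 mM NaCl outnumbered the higher ones.

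The share of families that differed was largest among the abundant ones, although a high value in 1 of the 2 libraries also raises the mean by which they were binned. The added 1 also shrinks differences at low values. With 0.1 added in its place, 423 families were at least 4-fold higher and 229 lower, and the bins were not recounted. Of the 792 families whose mean in the pair reached 100, 96 were at least 4-fold higher at 150 mM NaCl and 24 were lower, together 15.2%. In the 3843 families with means from 20 to 100 the corresponding numbers were 102 and 58, together 4.16%, and in the 3131 families from 5 to 20 they were 61 and 62, together 3.93%. In the 791 families with means from 1 to 5, 26 were higher and 33 were lower, together 7.46%. Few kept families were listed at 0, which the minimum mean over these same 2 libraries favours. Over all 10122 families, 1263 were listed at 0 at 0.38 mM nitrate and 1247 at 150 mM NaCl. Listed at 0 only at 0.38 mM nitrate were 9 kept families, with a highest value of 9.24 at 150 mM NaCl. Another 5 were listed at 0 at 150 mM NaCl only, with a highest value of 16.91 at 0.38 mM nitrate.

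The direction found in the RAA-coded pair was mostly the direction in the check pair. Of the 285 families at least 4-fold higher at 150 mM NaCl than at 0.38 mM nitrate, 254 (89.1%) were also higher at 300 mM NaCl than without nitrate. Of the 177 families at least 4-fold lower, 168 (94.9%) were also lower. Over all 8557 families the direction was shared by 71.2%, and 49.6% of all families were above 0 in the check pair. The shares describe families of single libraries, which are not independent replicates.

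**Figure D1:**
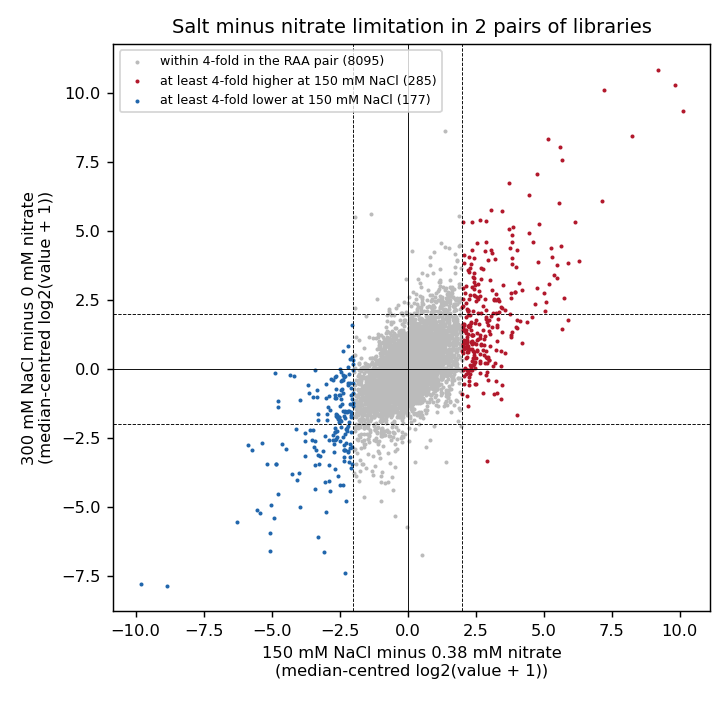
Each point is 1 of 8557 scaffold families; the horizontal axis is the difference between 150 mM NaCl and 0.38 mM nitrate and the vertical axis that between 300 mM NaCl and 0 mM nitrate, both in median-centred log2(value + 1) units, with dashed lines at 4-fold. Families that are at least 4-fold higher (285) or lower (177) on the horizontal axis lie mainly in the upper right and the lower left.

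Families with large differences in the RAA-coded pair had the same direction in the check pair more often than those with small ones, although not at every step in size. Among families that differed by less than 0.5 log2 units, 60.3% of those higher and 61.3% of those lower at 150 mM NaCl had the same direction in the check pair. Between 1 and 1.5 log2 units the shares were 82.4% and 90%, and between 1.5 and 2 they were 82.1% and 89.7%. Between 2 and 3 log2 units they were 86.3% of 183 higher and 92.4% of 118 lower families. At 4 log2 units or more, 43 of 44 higher families and 26 of 26 lower families had the same direction.

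**Figure D2:**
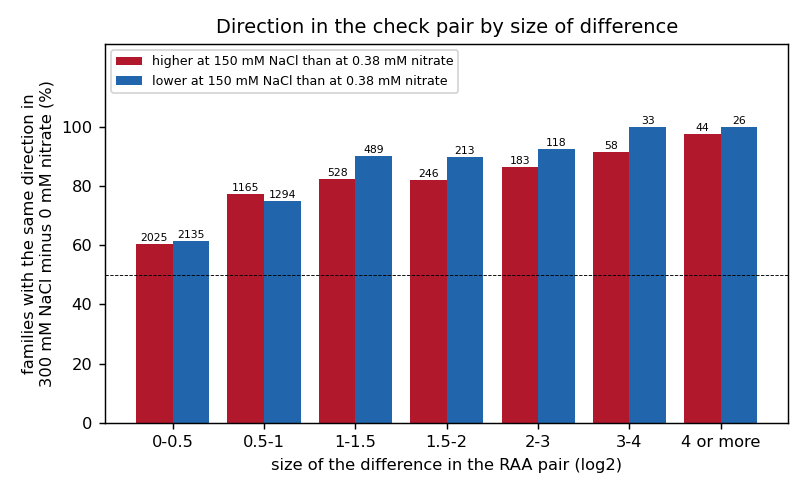
Bars give the percent of families with the same direction in 300 mM NaCl minus 0 mM nitrate, by the size of their difference between 150 mM NaCl and 0.38 mM nitrate (log2 units, horizontal axis) and by its direction (red higher, blue lower), with the number of families above each bar and a dashed line at 50%. The shares are 60.3% and 61.3% in the smallest differences and 97.7% and 100% in the largest, with a level stretch between 1 and 2 log2 units.

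The sizes in the check pair were smaller than those in the pair that chose the families. The 285 higher families had a median difference of 2.66 log2 units in the RAA-coded pair, by which they were chosen, and 1.63 in the check pair. The 177 lower families had medians of -2.6 and -2.06, against -0.01 in each pair over all families. Past 4-fold in both pairs were 123 families higher under salt, which is 43.2% of the 285 and 40.7% of the 302 (3.53% of all families) that passed 4-fold in the check pair. Past 4-fold lower in both were 89 families, 50.3% of the 177 and 39.4% of the 226 (2.64% of all families) in the check pair. Across all 8557 families the differences of the 2 pairs had a Pearson r of 0.667 and a Spearman rho of 0.595. Besides being from other cultures, the pairs differ in concentration on both sides, and the part of each in the spread was not tested.

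Among the families with the largest agreeing differences, 69_c0 and 108_c0 were higher under salt. The value of 69_c0 was 10677.56 at 150 mM NaCl against 6.01 at 0.38 mM nitrate, and it was 4780.85, 16709.25 and 16069.19 at 75, 300 and 600 mM NaCl. Without nitrate it was 23.8 and at 0.75 mM nitrate 4.18, while the 1.5 mM, 3 mM and control libraries gave 23.4, 41.81 and 173.51. Every NaCl library was therefore above every other library, and 69_c0 ranked 2 by value at 150 mM NaCl and 7242 at 0.38 mM nitrate. The differences were 10.13 log2 units in the RAA-coded pair and 9.37 in the check pair.

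Family 108_c0 lay above the replete libraries in the NaCl libraries and below them in the nitrate-limited ones. Its value was 2021.59 at 150 mM NaCl and 268.96, 1271.61 and 944.57 at 75, 300 and 600 mM. It was 0.66 at 0.38 mM nitrate and 0.56 at 0.75 mM, and it was listed at 0 without nitrate. The nitrate-replete libraries lay between these groups, with 123.05, 168.83 and 118.91 at 1.5, 3 and 9 mM nitrate. Its difference was 9.81 log2 units in the RAA-coded pair and 10.29 in the check pair. Both sizes depend on the added 1, the first against a value of 0.66 and the latter against a value listed at 0. With 5 added the differences were 8.11 and 7.97, and with 0.1 added they were 10.91 and 13.61.

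The lower families with the largest agreeing differences were 743_c0 and 906_c0, both present at high level in the nitrate-limited cultures. The value of 743_c0 was 882.62 at 0.38 mM nitrate, with 814.14 and 259.33 at 0.75 and 0 mM, and between 0.14 and 0.38 in all of the other libraries, with 0.33 at 150 mM NaCl. Its differences were -9.82 and -7.78 log2 units in the 2 pairs. These sizes depend on the added 1, since the values on the NaCl side were under 1. With 5 added the differences were -7.75 and -5.69, and with 0.1 added they were -11.47 and -9.74. Family 906_c0 had 1433.84 at 0.38 mM nitrate, with 2090.66 and 548.4 at 0.75 and 0 mM. The replete libraries of 1.5, 3 and 9 mM had 6.03, 4.65 and 6.06, and the value was 2.78, 3.23, 1.43 and 0.88 at 75, 150, 300 and 600 mM NaCl. For both families the replete libraries lay near the NaCl libraries, unlike 108_c0, and the differences of 906_c0 were -8.85 and -7.85.

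**Figure D3:**
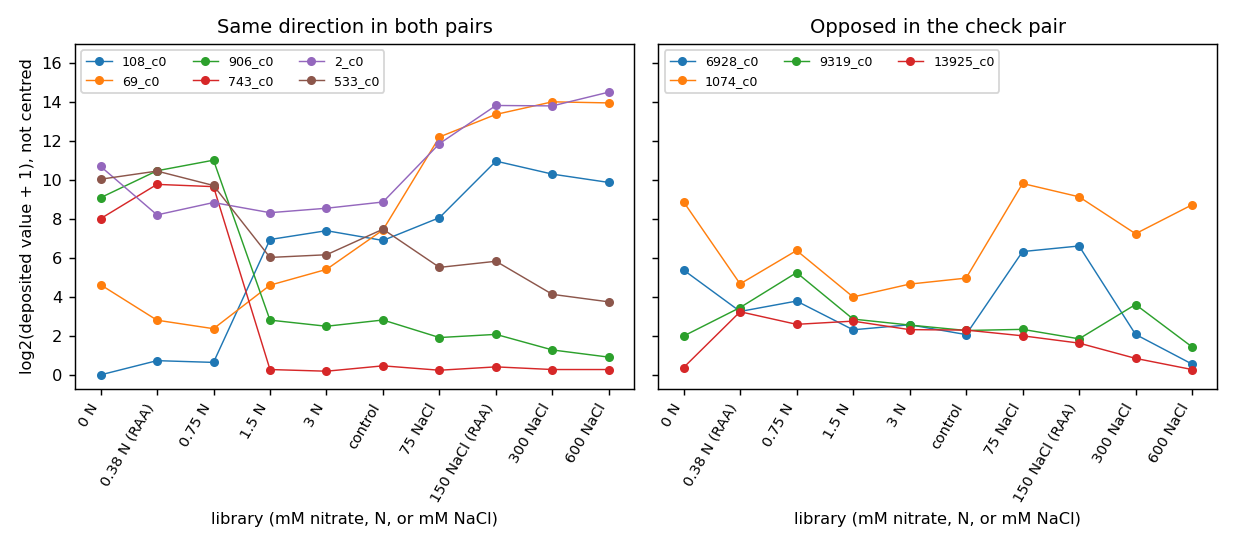
Values of the 10 named families in each of the 10 libraries (horizontal axis, mM nitrate or NaCl), as log2(deposited value + 1) without centring; points are single libraries and lines only join them. On the left are families with the same direction in both pairs, such as 69_c0 with 10677.56 at 150 mM NaCl and 6.01 at 0.38 mM nitrate; on the right are families opposed in the check pair.

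The level in the libraries that the 4-fold choice did not use shows where the 2 sets stood in the other conditions. The 285 families higher at 150 mM NaCl had a median centred level of 1.88 log2 units there, and medians of 1.36, 1.49 and 2.44 at 75, 300 and 600 mM NaCl. In the replete libraries of 1.5, 3 and 9 mM nitrate the medians were -0.06, 0 and 0.11. The median was -1.17 at 0.38 mM nitrate, with -0.31 and -0.39 at 0.75 and 0 mM. The median of the set was thus above the replete medians in every NaCl library. Its low median at 0.38 mM nitrate, a library used in the choice, was less marked in the other nitrate-limited cultures. The lower quartile was -3.33 at 0.38 mM nitrate, -1.74 at 0.75 mM and -3.6 without nitrate.

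The 177 families lower at 150 mM NaCl had a median centred level of 0.63 at 0.38 mM nitrate and 0.11 at 0.75 mM, but of -0.88 without nitrate. The replete medians were -1.15, -1.33 and -1.16 at 1.5, 3 and 9 mM. In the NaCl libraries of 75, 150, 300 and 600 mM the medians were -2.31, -2.43, -3.35 and -3.04. Without nitrate the median therefore lay nearer to the replete libraries than to 0.38 mM nitrate, while the level at 300 mM NaCl was the lowest of the 10.

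**Figure D4:**
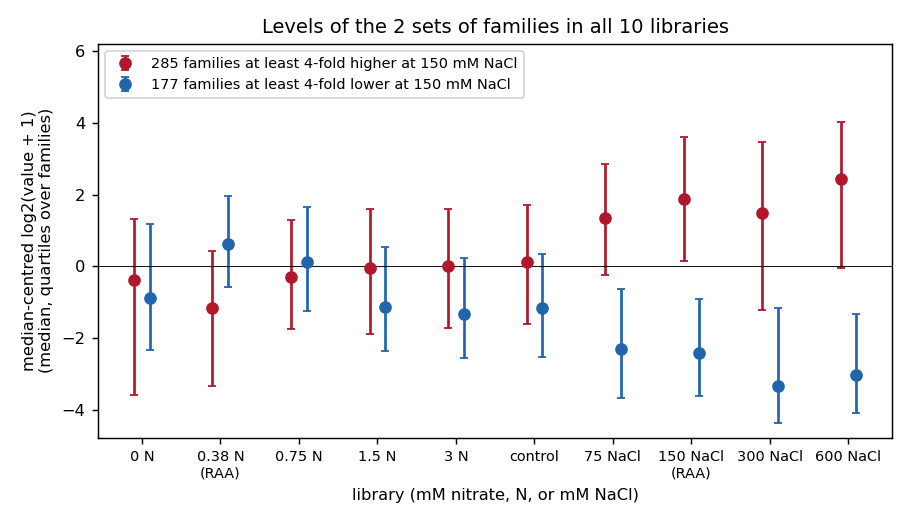
Points are medians and bars the quartiles over families of the median-centred log2(value + 1), for the 285 families at least 4-fold higher (red) and the 177 at least 4-fold lower (blue) at 150 mM NaCl than at 0.38 mM nitrate; the 10 libraries are on the horizontal axis. The red medians are 1.36 to 2.44 in the NaCl libraries and the blue medians -2.31 to -3.35, while at 0 mM nitrate they are -0.39 and -0.88.

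Read family by family against the 3 replete libraries, the differences had a part on each side. These readings share the replete libraries, and the RAA code does not cancel in them. Of the 285 higher families, 190 (66.7%) were at 150 mM NaCl at least 2-fold above all 3 replete libraries, where 8.05% of all families were. At 0.38 mM nitrate 112 of the 285 (39.3%) were at least 2-fold below all 3, where 8.79% of all families were. Of the 177 lower families, 116 (65.5%) were at 0.38 mM nitrate at least 2-fold above all 3 replete libraries, where 8.79% of all families were. At 150 mM NaCl 64 of the 177 (36.2%) were at least 2-fold below all 3, where 6.38% of all families were. Since the families were chosen for the distance between these 2 libraries, such positions had to be frequent.

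In the c-coded libraries, which had no part in that choice, each culture gave its own reading. At 75 mM NaCl 133 of the 285 families (46.7%) were at least 2-fold above all 3 replete libraries, where 4% of all families were. At 600 mM NaCl it was 170 (59.6%, against 12.2% of all families), and at 300 mM it was 138 (48.4%, against 6.4%). At 0.75 mM nitrate 47 of the 285 (16.5%, against 3.24% of all families) were at least 2-fold below the replete libraries. Without nitrate 101 (35.4%, against 9.43%) were below them by that much and 50 (17.5%, against 6.95%) were above. Of the 177 lower families, 73 (41.2%) were at least 2-fold above the replete libraries at 0.75 mM nitrate, where 4.13% of all families were. Without nitrate it was 57 (32.2%, against 6.95%), while 30 of the 177 (16.9%, against 9.43%) were at least 2-fold below the replete libraries there. At 75 mM NaCl 54 of the 177 (30.5%, against 1.31% of all families) were at least 2-fold below the replete libraries. At 300 mM it was 93 (52.5%, against 7.56%), and at 600 mM it was 92 (52%, against 10.1%). Above them by that much at 75, 300 and 600 mM NaCl were 4, 10 and 15 of the 177. These were 2.26%, 5.65% and 8.47%, against 4%, 6.4% and 12.2% of all families.

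Complete separation of the c-coded stress libraries was common in both sets. In 175 of the 285 higher families (61.4%), 75, 300 and 600 mM NaCl were all above 0 and 0.75 mM nitrate, and over all families 18.2% had this order. In 126 of the 177 lower families (71.2%) the 3 NaCl libraries were all below the 2 nitrate libraries, as in 16.9% of all families. In 0 of the 285 and 0 of the 177 the c-coded libraries were separated in the opposite order. With the RAA libraries included, all 4 NaCl libraries were above all 3 low-nitrate libraries in 992 families (11.6%) and below them in 1025 (12%). The gap was at least 2-fold in 123 (1.44%) and 88 (1.03%) families.

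The most abundant of the families separated by at least 2-fold were 2_c0 and 69_c0 on the side of salt. The value of 2_c0 was 14668.21 at 150 mM NaCl and 297.01 at 0.38 mM nitrate, and 3769.75, 14449.18 and 23630.26 at 75, 300 and 600 mM NaCl. It was 461.9 at 0.75 mM nitrate and 321.37, 376.84 and 470.73 in the replete libraries at 1.5, 3 and 9 mM. Without nitrate it was 1679.03, above each of the other nitrate libraries, so the difference was 5.18 log2 units in the RAA-coded pair and 3.08 in the check pair. Family 2_c0 alone held 2.42% of the summed value at 150 mM NaCl and 0.0818% at 0.38 mM nitrate.

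On the side of nitrate limitation they were 906_c0 and 533_c0. Family 533_c0 had 1417.94 at 0.38 mM nitrate, with 1060.24 and 848.34 at 0 and 0.75 mM. The replete libraries of 1.5, 3 and 9 mM had 64.52, 71.08 and 178.22, and the value was 44.97, 56.17, 16.58 and 12.46 at 75, 150, 300 and 600 mM NaCl. The 3 nitrate-limited values lay above all others and the NaCl values below the replete ones. The differences of 533_c0 were -5.08 and -5.94 log2 units in the 2 pairs.

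The families higher under salt held a large part of the summed values of the NaCl libraries. The 285 families held 19.5% of the summed value at 150 mM NaCl and 1.76% at 0.38 mM nitrate. Both sets were chosen by those libraries, so their shares there had to differ. At 75, 300 and 600 mM NaCl they held 12.3%, 19.4% and 25.1%, and they held between 8.03% and 9.59% in the replete libraries, 2.94% at 0.75 mM nitrate and 2.68% without nitrate. The 177 lower families held 4.35% at 0.38 mM nitrate, with 3.03% and 2.23% at 0.75 and 0 mM. They held between 0.641% and 0.738% in the replete libraries and between 0.208% and 0.374% in the NaCl libraries. Because the 285 were chosen for being high at 150 mM NaCl, they had to be frequent among its abundant families: 7 of its 10 most abundant were among them, against 3.33% of all families, and 3 of the 10 were also among the 10 most abundant at 0.38 mM nitrate. None of the 10 most abundant families at 0.38 mM nitrate was among the 177 or the 285. Those 10 held 5.21% of that library's summed value, whereas the 10 of the salt culture held 11.3% of theirs.

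**Figure D5:**
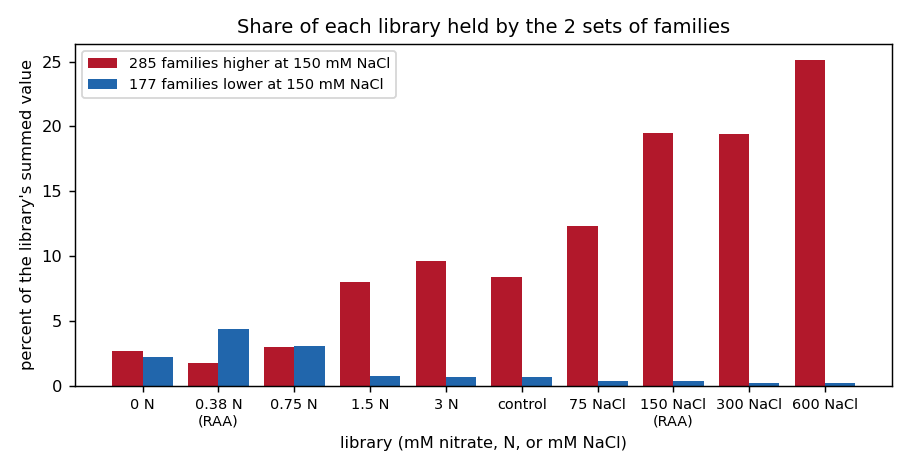
Bars give the percent of each library's summed value (over all 10122 families) held by the 285 families at least 4-fold higher (red) and the 177 at least 4-fold lower (blue) at 150 mM NaCl than at 0.38 mM nitrate; the libraries are on the horizontal axis. The red bars reach 19.5% at 150 mM and 25.1% at 600 mM NaCl and are below 3% in the 3 nitrate-limited libraries, with 1.76% to 2.94%.

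Within each stress, the members of a set did not all share one order of concentrations. Among the c-coded NaCl libraries, 152 of the 285 higher families (53.3%) had their highest centred level at 600 mM, while 55 were highest at 300 mM and 78 at 75 mM. Over all families 41% were highest at 600 mM. Of the 177 lower families, 99 (55.9%) had their highest NaCl level at 75 mM, against 29.8% of all families. In the nitrate-limited cultures outside the pair, 118 of the 177 (66.7%) were higher at 0.75 mM than without nitrate, against 47.8% of all families, and 69 (39%) were at least 2-fold higher, against 11.6%.

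In 40 families past 4-fold the check pair had the opposite sign. These were 31 of the 285 higher families and 9 of the 177 lower ones, and in 27 of the 31 and 8 of the 9 the check pair was within 2-fold. The choice used the levels of both pairs, so the levels below at 300 mM NaCl and without nitrate follow in part from it. The 31 families had a median centred level of 1.32 at 150 mM NaCl, with 0.76 and 1.77 at 75 and 600 mM but -0.15 at 300 mM. Their median was 0.61 without nitrate, against -0.97 and -0.64 at 0.38 and 0.75 mM and -0.62 in the control. Without nitrate 19 of the 31 were above all 3 replete libraries and 10 below them, where 40% and 40.9% of all families were. At 300 mM NaCl 16 of the 31 were above and 11 below all 3, where 38.7% and 39.3% of all families were. The 9 families had a median of -2.53 without nitrate, against -0.76 at 0.38 mM, and of -2.14 at 300 mM NaCl, against -3.01 at 150 mM.

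Family 1074_c0 had values of 566.71 at 150 mM NaCl and 24.53 at 0.38 mM nitrate. It had 910.94, 151.39 and 425.75 at 75, 300 and 600 mM NaCl, 82.92 at 0.75 mM nitrate and 15.04 to 30.37 in the replete libraries. Without nitrate it was 472.04, above its 300 mM NaCl level, and the differences of 1074_c0 were 4.03 log2 units in the RAA-coded pair and -1.66 in the check pair. Family 6928_c0 had 97.5 at 150 mM NaCl and 79.74 at 75 mM, but 3.23 at 300 mM and 0.47 at 600 mM. Its values were 8.57 at 0.38 mM nitrate, 12.86 at 0.75 mM and 40.78 without nitrate, with 3.2 to 4.96 in the replete libraries. High values of 6928_c0 were thus found at the 2 lower NaCl concentrations above the control and without nitrate, and its differences were 2.92 and -3.33.

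The 2 named opposed families on the lower side were near the 4-fold line and had low values at 150 mM NaCl. Family 9319_c0 had 2.61 at 150 mM NaCl and 10.01 at 0.38 mM nitrate, 11.25 at 300 mM NaCl and 2.99 without nitrate. It was highest at 0.75 mM nitrate, with 37.16, and between 1.71 and 6.29 in the libraries not yet given. Its differences were -2.05 and 1.59 log2 units. Family 13925_c0 had 2.1 at 150 mM NaCl and 8.47 at 0.38 mM nitrate, and 0.8 at 300 mM NaCl and 0.3 without nitrate. Both values of its check pair were under 1, and its differences were -2.06 and 0.44.

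The difference between the RAA libraries was also examined where both departed to one side from their neighbours in concentration, which are 0 and 0.75 mM nitrate for one and 75 and 300 mM NaCl for the other. In 38 families both RAA libraries were at least 4-fold below the mean centred level of their neighbours, and in 15 families both were at least 4-fold above. The 38 families had a median departure of -2.7 log2 units at 0.38 mM nitrate and of -2.91 at 150 mM NaCl, but a median difference between the 2 libraries of 0.33. Past 4-fold in the difference were 7 of the 38 (18.4%) and 4 of the 15 (26.7%), against 5.4% of all families. In the check pair, whose libraries are among those neighbours, the 38 families had a median difference of 2.14. In 546 families both libraries lay at least 2-fold to one side of their neighbours. Outside these were 8011 families, with 418 of the 462 past 4-fold. Past 4-fold were 5.22% of the 8011, against 8.02% where both libraries lay below and 8.08% where both lay above. What the departures come from was not tested.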

How the data were processed

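The members, lists and thresholds used here were chosen with earlier results of these data known. The table holds expression signal values per scaffold family, recorded by the authors and deposited as non-negative numbers with 2 decimals. They were taken to be scaled for length and depth, which was not tested. No source used here gives whether they are FPKM or TPM. Bowtie 0.12.8, RSEM 1.2.0 and edgeR 3.0.8 are named in the submitters' processing notes, with no role or order.

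Families with a mean of at least 1 over the 2 RAA-coded libraries were kept, log2(value + 1) was taken and each library was centred on its median over the kept families (pandas 2.3.3, numpy 2.4.6). A family was counted as different past 4-fold. The counting was checked on simulated data. Named families had a mean of at least 5. They were the 2 per direction with the largest difference in the weaker of the 2 pairs when these agreed. The same was done for families past 4-fold in the RAA-coded pair with the opposite sign in the check pair. The 2 most abundant per direction with all NaCl libraries at least 2-fold from all low-nitrate ones were added. Gene lists considered could not be matched to families.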

Additional observations from a re-analysis of the deposited data

Results flagged for a closer look

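In 4 named families the single-library difference between salt and nitrate limitation pointed one way in the RAA-coded pair and the other way in the check pair of 300 mM NaCl and 0 mM nitrate. The gap between the 2 differences was 6.25 log2 units for 6928_c0 and 5.69 for 1074_c0. It was -3.64 for 9319_c0 and -2.5 for 13925_c0. The check difference of 13925_c0 was only 0.44, from values of 0.8 and 0.3. The 4 families were picked for their opposite signs, each pair has 1 library a side at other concentrations, and the gap between the pairs was not tested.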

How the results depend on the processing

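No paired analysis was possible because each condition had 1 library, and for the same reason no replicate could be left out. Over 19 alternatives, 82 of 103 recomputed counts and shares stayed within 1.5 times the value given, or within its 95% exact binomial interval for a share. That interval treats families as independent, which they are not. It served only as a fixed limit and does not measure the variation between cultures. With a pseudocount of 5 the families past 4-fold were 175 higher and 94 lower, with 100% of the lower in the direction of the check pair. With no centring they were 495 and 107, with 98.1% of the lower in that direction, and the 4 NaCl libraries were all below the 3 low-nitrate ones in 656 families. Centring on the 1000 families with the highest mean over the RAA libraries gave 290 lower families. It gave 565 families with the NaCl libraries all above and 1849 with them all below, while equal library totals gave 645 all above. The 2-fold threshold gave 1059 higher, of which 84.1% kept the direction, and 879 lower. Between 3 and 1.5 mM nitrate, 12 families passed 4-fold with a pseudocount of 0.1, 1 with no centring and 30 passed 2-fold. The share of higher families with the same direction was 95.8% against 600 mM NaCl minus 0 mM nitrate (66% of all families) and 77.2% against 300 mM NaCl minus 0.75 mM nitrate, near the 73% of all families. The lower families' smallest share was 83.6% (67% of all families), against 75 mM NaCl minus 0 mM nitrate, a pair added after the data were seen. Alternatives were also added after seeing the data: exchanging the roles of the pairs gave 95% for the higher families, and leaving out the families in which both RAA libraries departed to one side gave 267 higher and 151 lower. Of 240 recomputed differences of named families 0 changed sign and 9 crossed the 4-fold line, 8 of them those of 9319_c0 and 13925_c0. The check difference of 13925_c0 came close to 0, with 0.11 at a pseudocount of 5 and 1.14 at 0.1. It was 0.03 when the 10 libraries were given the same distribution of values. The lack of read depth limits what can be said of low values.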
